A study of Dorcoceras hygrometricum with 14 samples.

Results

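Leaf explants of Boea hygrometrica after 10 days on induction medium were compared with explants on day 0, which had been cut but not cultured. Boea hygrometrica (also Dorcoceras hygrometricum) is a desiccation-tolerant resurrection plant of the Gesneriaceae whose leaf pieces can form shoots in culture. The day 10 group (YL-10d) and the day 0 group (YL-0d) each held 3 RNA-seq libraries. The labels call these 3 biological replicates, and about 30 leaf discs were mixed for each. Genes were taken into the comparison when they reached 1 FPKM (fragments per kilobase of transcript, scaled to the library's mapped fragments, and so a level per length) in at least 3 of the 6 libraries. That held for 16202 of the 24110 genes in the deposited table.

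Both groups came from the same source. Young leaves of 1-month-old sterile plants, raised without growth regulators from seed of wild plants, were cut into pieces with sides of 0.5 cm. The day 10 pieces then lay with the lower surface on half-strength MS medium with 0.1 mg/L of 2,4-D, a synthetic auxin, and 0.1 mg/L of 6-BA, a cytokinin. Time since cutting, the hormones and the medium therefore differed together between the groups, and explants cultured without hormones were not analysed here, so their parts in a difference cannot be told apart. Libraries from days 5 and 15 of the same culture (YL-5d and YL-15d, 3 each) entered the model as a further measure of the spread between replicates.

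In shoot regeneration, cells of a cut leaf leave their mature state, take up division and form callus or new meristems under the control of auxin and cytokinin. Auxin acts through response factors (ARF), their Aux/IAA repressors and, further on, LBD transcription factors, which in Arabidopsis are needed for callus formation. Cytokinin is made by isopentenyltransferases, released in active form by LOG enzymes and read out by response regulators. A leaf cell that leaves its mature state also gives up the chloroplast programme, which takes up a large part of its transcripts.

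The days separated along the first principal component of the 6 libraries, which held 43.6% of the variance. Day 10 libraries lay at 48.2, 48.05 and 42.7 and day 0 libraries at -67.8, -59.0 and -12.2, so replicate 3 of day 0 was the one nearest to day 10. On the second component (23.7%) replicate 3 lay at -63.3 at day 10 and -25.6 at day 0, apart from replicates 1 and 2 of both days, which all had positive values. Across genes, replicates correlated with r of 0.939 (1 and 2), 0.888 (1 and 3) and 0.917 (2 and 3) at day 10, against 0.963, 0.915 and 0.912 at day 0. FPKM totals ran from 886746 to 970083 at day 10 and from 937112 to 965610 at day 0. Between 15531 and 16496 genes reached 1 FPKM at day 10, and between 15625 and 16277 at day 0. Read depth is not given in the sources used here.

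Of the 16202 genes, 815 (5.03%) differed between the days, 404 higher at day 10 (2.49%) and 411 lower (2.54%). A gene was called when limma's moderated test gave an adjusted p under 0.05 and the log2 fold change, day 10 minus day 0 on the log2(FPKM + 1) scale, was at least 1 in size. This scale understates the change of genes with low levels. The 3 libraries of day 10 lay wholly above or below those of day 0 in 4906 of the 16202 genes (30.3%) and in 786 of the 815 called, 402 higher and 384 lower. The other 29 calls were made on groups that overlapped. Sizes of at least 2 on the log2 scale were reached by 110 genes that rose and 134 that fell, and sizes of at least 3 by 30 and 39. The extremes were 4.90 and -6.96. Of the 404 genes called higher, 25 reached 1 FPKM in the 3 day 10 libraries and in no day 0 library, and 21 of the 411 called lower did so at day 0 only. Such genes entered the test only through the day on which they are high and so had to differ. Those named below are given by their levels with no p. In the lists below they make up 1 of the higher calls among abscisic acid, heat stress, ERF, MYB, cytochrome P450, wall loosening and phosphate starvation genes and guard cell markers. They also make up 1 of the lower calls among Calvin cycle, homeodomain, cuticle, wall loosening and phosphate starvation genes and shoot meristem markers. Genes that reached 1 FPKM in only 1 or 2 libraries of the other day also needed the day on which they are high to pass. Their p is printed below, but the filter favoured a difference in them. With 1 such library these include HVA22-like protein a, radialis, flavonol synthase-like, the GH3 gene F511_31069, gibberellin 20 oxidase 1-B-like and the histone H2B-like gene.

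The count of calls rested on single libraries. It was 233, 316 and 1199 without replicate 1, 2 or 3 of day 0, and 780, 322 and 716 without replicate 1, 2 or 3 of day 10. A fit on the 6 libraries alone called 134 genes, 133 of them also called above, and 105 of the 815 calls passed both there and with each of the 6 libraries left out in turn. Those 105 are said below to be kept throughout, which refers to these fits only. With a term for the replicate number added to the fit on the 6 libraries, 0 genes were called, so each of the 105 was lost there. Calls given below with a p and with values in every library, but without that remark, were lost on the 6 libraries alone. A range after a list's count covers the counts with each of the 6 libraries left out in turn. List counts stand beside 5.03% of all genes called, 2.49% higher and 2.54% lower. The median log2 fold change over all 16202 genes was 0.15, and dividing each library by a median-ratio size factor brought it to -0.00. After that rescaling 257 genes were called higher and 536 lower, so that 32.4% of calls were higher, against 49.6% as deposited. All 257 higher calls after rescaling were among the 404.

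**Figure D1:**
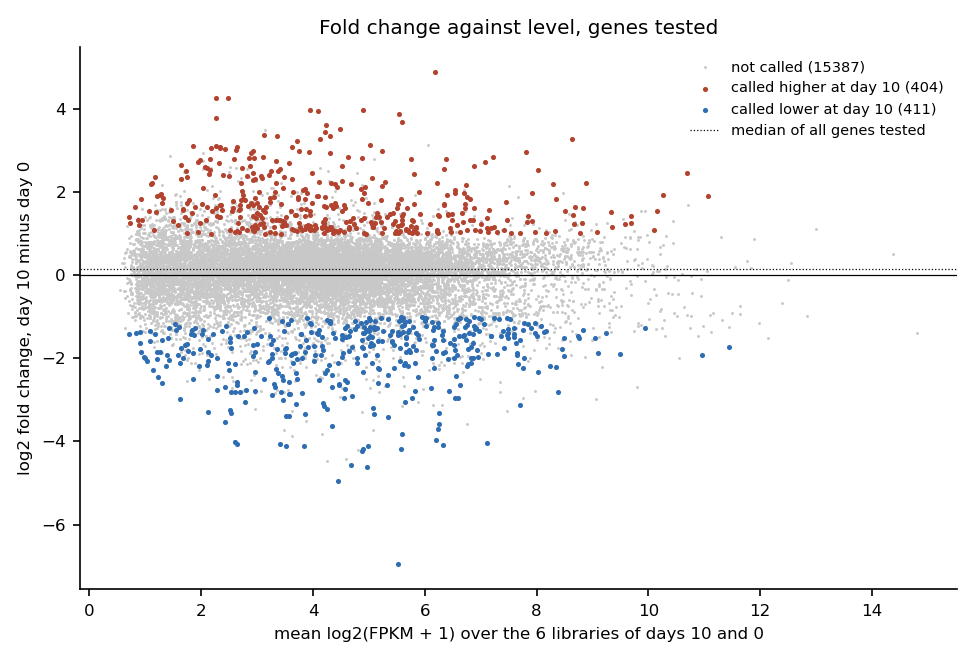
Log2 fold change of day 10 over day 0 (vertical axis) against the mean log2(FPKM + 1) of the 6 libraries (horizontal axis) for the 16202 genes tested. The 404 genes called higher and the 411 called lower are marked, and the median of all genes lies at 0.15.

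Large rises were seen in genes for a wall peroxidase, a ribonuclease and nutrient transporters. FPKM values are given in the order of replicates 1, 2 and 3. The gene F511_06406, listed as anionic peroxidase (lignin-forming), of the class III enzymes that cross-link wall phenolics, had 218, 526 and 546 FPKM at day 10, against 11.03, 13.6 and 12.5 FPKM at day 0 (log2 fold change 4.90, SE 0.49, adjusted p = 0.0017). Every day 10 library stood far above every day 0 library, with replicate 1 the lowest of day 10. An extracellular ribonuclease LE-like gene (F511_39535), named after a tomato enzyme released under phosphate shortage, had 61.6, 51.8 and 69.9 FPKM at day 10, against 4.12, 3.54 and 1.54 FPKM at day 0 (3.98, SE 0.28, adjusted p = 0.000394), with no overlap. Abscisic acid 8'-hydroxylase 4-like (F511_11778), which starts the breakdown of abscisic acid, had 29.8, 32.7 and 13.03 FPKM at day 10, against 0.16, 0.49 and 0.17 FPKM at day 0. Replicate 3 was the lowest of day 10 and still far above day 0, and the gene passed the level filter only through day 10. A vinorine synthase-like acyltransferase gene (F511_24117) had 39.8, 68.8 and 107 FPKM at day 10, against 4.5, 3.7 and 2.17 FPKM at day 0 (3.96, SE 0.42, adjusted p = 0.0023), and the day 10 libraries all lay above.

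Transporters and stress proteins followed. HVA22-like protein a (F511_25902), of a family induced by abscisic acid in barley, had 15.9, 15.9 and 18.97 FPKM at day 10, against 0, 0 and 1.21 FPKM at day 0 (3.78, SE 0.36, adjusted p = 0.00145). Molybdate transporter 1 (F511_00443) had 82.4, 83.05 and 62.7 FPKM at day 10, against 7.73, 3.01 and 7.33 FPKM at day 0 (3.53, SE 0.40, adjusted p = 0.0026). Day 10 stood clear of day 0 in both genes, and the only day 0 signal of HVA22-like protein a came from replicate 3. Probable zinc transporter 10 (F511_16365) had 22.3, 47.8 and 18.3 FPKM at day 10, against 1.46, 2.26 and 1.5 FPKM at day 0 (3.37, SE 0.33, adjusted p = 0.0017), again with no overlap and with replicate 2 the highest at day 10. A regulatory gamma subunit of SNF1-related protein kinase (F511_41888), the plant relative of the energy sensor AMPK, had 39.5, 36.7 and 21.8 FPKM at day 10, against 0.51, 1.36 and 8.23 FPKM at day 0 (3.35, SE 0.58, adjusted p = 0.00975), with replicate 3 of day 0 the nearest to day 10. Its call was lost on the 6 libraries alone (adjusted p = 0.0694), while the other calls of this and the preceding paragraph were kept throughout.

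The largest fall among called genes was in a gene for a chloroplast protein. CURVATURE THYLAKOID 1B (F511_10460), whose protein bends thylakoid membranes, had 6.51, 3.48 and 1.1 FPKM at day 10, against 613, 507 and 440 FPKM at day 0 (log2 fold change -6.96, SE 0.57, adjusted p = 0.000878). All 3 day 10 libraries lay far below day 0, and day 5 and day 15 means were 5.61 and 2.97 FPKM. A polyphenol oxidase I-like gene (F511_05840), of the enzymes that brown cut tissue, had 8.18, 18.9 and 39.9 FPKM at day 10, against 480, 351 and 216 FPKM at day 0 (-4.09, SE 0.50, adjusted p = 0.00322). A gene listed as radialis (BGI_novel_G000252), after a MYB-related factor of flower asymmetry in Antirrhinum, had 0, 1.08 and 0.68 FPKM at day 10, against 18.1, 16.7 and 42.7 FPKM at day 0 (-4.02, SE 0.52, adjusted p = 0.00354). No library of day 10 reached day 0 in either gene, and these 3 calls were kept throughout. The gene F511_09042, from the Aux/IAA family of auxin repressors (22D-like), had 2.1, 1.77 and 16.4 FPKM at day 10, against 246, 168 and 45.7 FPKM at day 0 (-4.56, SE 0.78, adjusted p = 0.00975). Flavonol synthase/flavanone 3-hydroxylase-like (F511_29741), an enzyme of flavonoid synthesis, had 0.93, 0.54 and 5.98 FPKM at day 10, against 53.95, 25.7 and 70.7 FPKM at day 0 (-4.10, SE 0.68, adjusted p = 0.0083). In both, replicate 3 was the highest at day 10, and the calls were lost on the 6 libraries alone (adjusted p = 0.0667 and 0.0503).

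**Figure D2:**
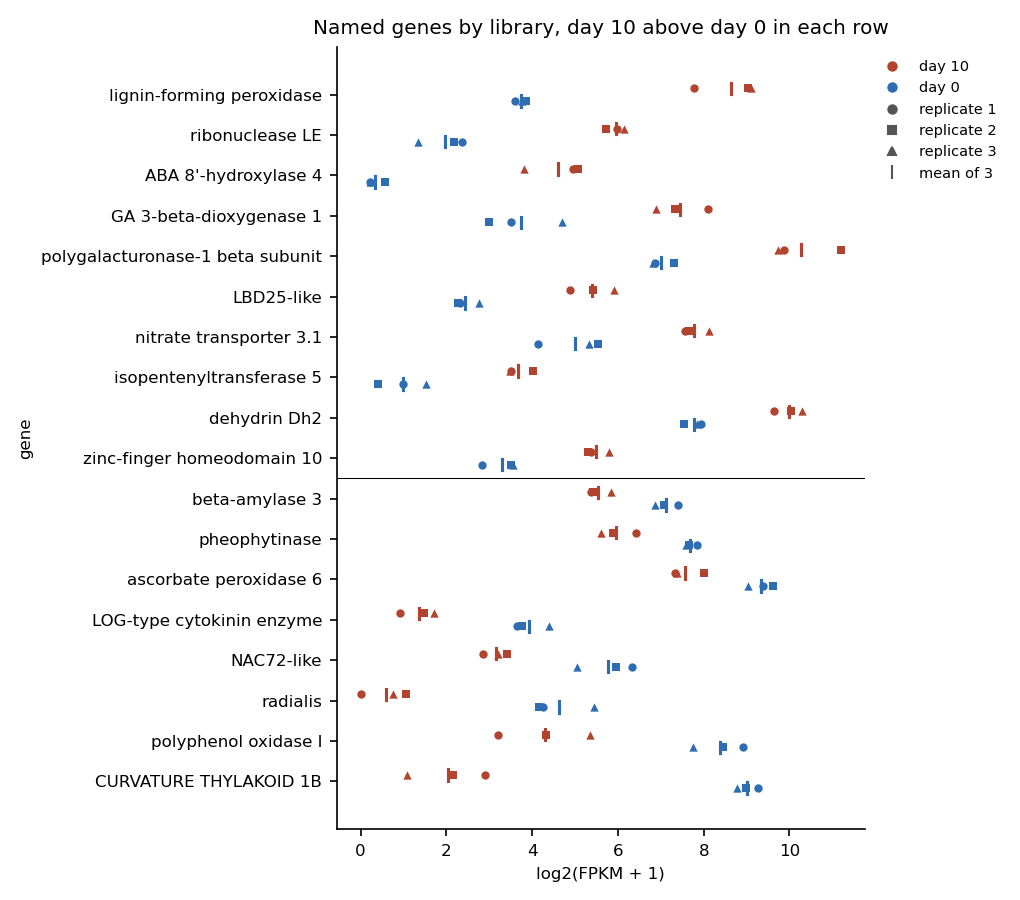
Log2(FPKM + 1) of 18 named genes in each library, with the 10 that rose above the horizontal line and the 8 that fell below it. In each gene the 3 day 10 values (red, upper) and the 3 day 0 values (blue, lower) do not overlap, with CURVATURE THYLAKOID 1B the widest apart at a log2 fold change of -6.96. The abscisic acid 8'-hydroxylase passed the level filter only through day 10.

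Of photosystem and light-harvesting genes 8.57% were called in either direction, and of Calvin cycle genes 23.5%, against 5.03% of all genes. Their level differed between the day 10 libraries. Of 35 photosystem and light-harvesting genes tested, 34 had a negative fold change (median -1.15, against 0.15 over all genes), with 3 called lower and 0 higher. Relative to day 0, the list's median in replicates 1, 2 and 3 of day 10 was -0.14, -1.34 and -1.74, against -0.08, -0.20 and 0.27 at day 0. Replicate 1 of day 10 thus lay within the range of day 0. Without that library 16 of the 35 were called lower, and without replicate 2 or 3 of day 10, or replicate 1 of day 0, none was. On the 6 libraries alone none was either. Calvin cycle enzymes, which fix carbon dioxide, had 3 of 17 called lower and 1 higher (median -1.0). They had 7 called lower without replicate 1 of day 10, 2 without replicate 3 of day 0 and 0 without any other single library. Sums of mesophyll markers, given further on, were likewise close to day 0 in replicate 1 of day 10 and below it in replicates 2 and 3. These markers include chlorophyll a-b binding proteins, so members are shared with the photosystem list and the sums are no separate measure. The part of mesophyll cells in these results was not tested. In these bulk samples, fewer mesophyll cells and less RNA per cell cannot be told apart.

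Log2 fold changes of the called photosystem genes ran from -3.35 to -1.05. Chlorophyll a-b binding protein 4 (F511_11779), an antenna protein of photosystem I, had 28.4, 8.86 and 3.15 FPKM at day 10, against 135, 92.1 and 99.3 FPKM at day 0 (-3.35, SE 0.76, adjusted p = 0.0253). Plastocyanin (F511_00970), the copper protein that passes electrons to photosystem I, had 192, 67.9 and 67.8 FPKM at day 10, against 544, 412 and 337 FPKM at day 0 (-2.13, SE 0.57, adjusted p = 0.0444), and the third photosystem gene called was psbY (F511_39394, -1.05, SE 0.22, adjusted p = 0.021). Replicate 1 was the highest at day 10 in the first 2 genes, and the groups did not overlap in any of the 3. The chloroplast dehydrogenase subunit GAPB (glyceraldehyde-3-phosphate dehydrogenase B, F511_29194) had 630, 363 and 228 FPKM at day 10, against 1508, 1223 and 1454 FPKM at day 0 (-1.89, SE 0.47, adjusted p = 0.0334). All 4 calls were lost without replicate 1 of day 0 or replicate 2 or 3 of day 10 (adjusted p up to 0.0933, 0.147, 0.0637 and 0.111), and on the 6 libraries alone (from 0.0682 to 0.0751). Transketolase-like (F511_28282) was the 1 Calvin cycle gene that rose, with 5.5, 7.39 and 9.94 FPKM at day 10, against 1.91, 1.03 and 2.43 FPKM at day 0 (1.63, SE 0.30, adjusted p = 0.0117). Its groups did not overlap, and its call was lost on the 6 libraries alone (adjusted p = 0.0753).

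Genes that build thylakoids fell in part. Of 15 tested, 6 were called lower and 0 higher (median -1.02), and 1 to 7 were called lower with 1 library left out. Besides CURVATURE THYLAKOID 1B, its relatives 1A-like (F511_25253) and 1C (F511_39960) had log2 fold changes of -1.05 and -1.18 (adjusted p = 0.0409 and 0.0276), and averaged 134 and 63.5 FPKM at day 10, against 265 and 141 FPKM at day 0. Both were lost on the 6 libraries alone (adjusted p = 0.105 and 0.0769), and a difference in size between the members was not tested. Plastoglobulin-1 (F511_07567), of the lipid droplets attached to thylakoids, averaged 70.9 FPKM at day 10 and 140 FPKM at day 0 (log2 fold change -1.02, adjusted p = 0.0357), and was likewise lost (adjusted p = 0.102).

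Chloroplast ribosomal proteins had 9 of 45 called lower and 0 higher (median -0.73), and 17 lower without replicate 1 of day 10 but 2 without replicate 2 of day 10 or replicate 1 of day 0. The 50S protein L24 gene (F511_21595) had 171, 105 and 108 FPKM at day 10, against 330, 293 and 280 FPKM at day 0 (-1.26, SE 0.20, adjusted p = 0.00723), and L13 (F511_36695) had 150, 95.01 and 83.4 FPKM at day 10, against 302, 254 and 252 FPKM at day 0 (-1.33, SE 0.23, adjusted p = 0.00947). Day 10 lay below day 0 in every library of both, and both calls were lost on the 6 libraries alone (adjusted p = 0.0639 and 0.0648). Chlorophyll synthesis had 0 of 20 called by limma (8 lower and 1 higher at an unadjusted p under 0.05, median -0.56).

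None of the chlorophyll breakdown and leaf senescence genes was called higher. Of 14 tested, 3 were called lower (median -0.91), and 1 to 5 were with 1 library left out. Pheophytinase (F511_08901), which takes the phytol tail off pheophytin, had 84.2, 57.6 and 47.4 FPKM at day 10, against 229, 200 and 190 FPKM at day 0 (-1.73, SE 0.25, adjusted p = 0.00512). Chlorophyll b reductase NYC1 (F511_02571), the first step of chlorophyll b breakdown, had 158, 174 and 92.98 FPKM at day 10, against 412, 368 and 261 FPKM at day 0 (-1.31, SE 0.28, adjusted p = 0.0218). Both were lower in all 3 day 10 libraries, pheophytinase kept throughout, and NYC1 was lost without replicate 1 or 2 of day 0 (adjusted p = 0.0871 and 0.0778) and on the 6 libraries alone (0.0856). D-glycerate 3-kinase (F511_06027), the last step of photorespiration, had 35.6, 38.3 and 28.2 FPKM at day 10, against 107, 107 and 87.8 FPKM at day 0 (-1.54, SE 0.27, adjusted p = 0.00975), with no overlap, and was kept throughout. It was the 1 of 10 photorespiration genes called lower, and the glycine cleavage H protein 2 gene (BGI_novel_G000663) was the 1 called higher (1.23, SE 0.26, adjusted p = 0.0198), a call lost without replicate 1 or 2 of day 0 or replicate 2 or 3 of day 10 (adjusted p up to 0.0771).

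Early light-induced proteins, which bind pigments under light stress, had a negative fold change in all 11 members tested (median -1.10), with 0 called by limma and 1 at an unadjusted p under 0.05. The list's median by replicate was -1.56, -0.26 and -1.73 at day 10, against -0.40, 0.00 and 0.32 at day 0. Replicate 2 of day 10 lay within the range of day 0.

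**Figure D3:**
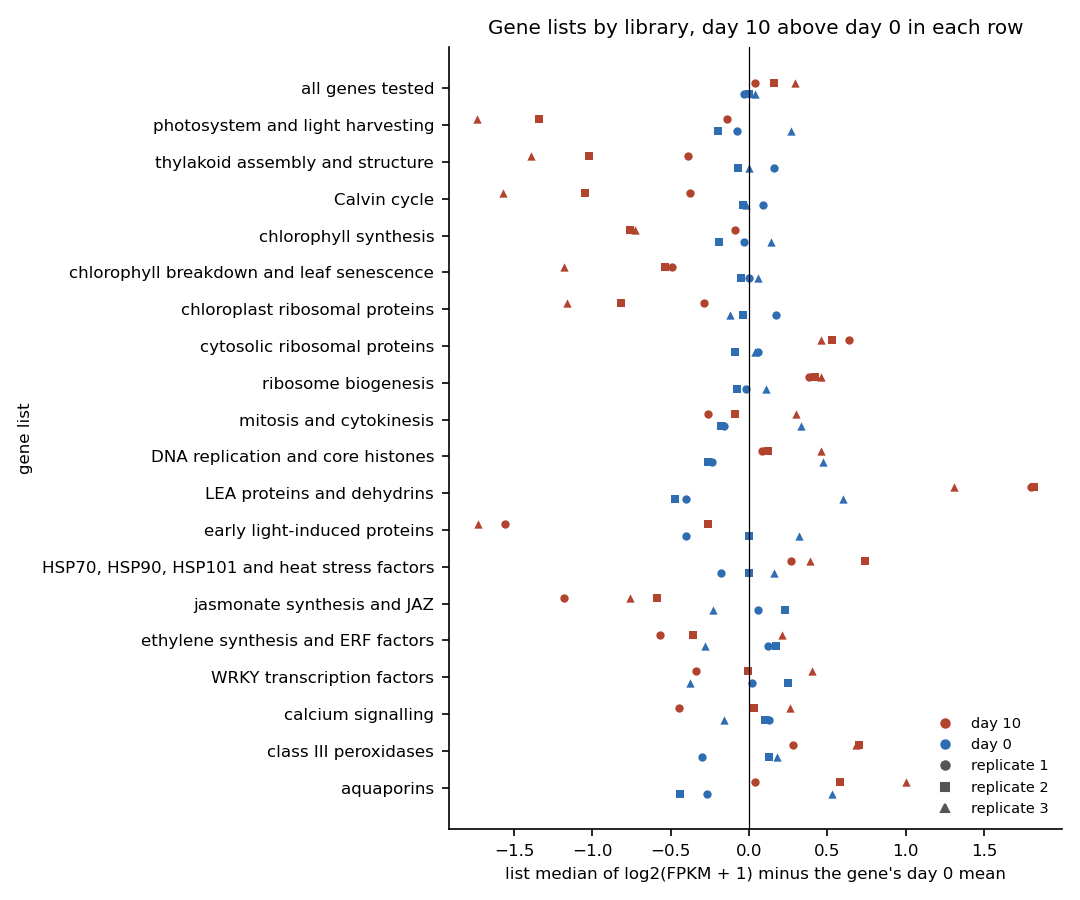
Median over each gene list of log2(FPKM + 1) minus the gene's day 0 mean (horizontal axis), by library, with day 10 in red above day 0 in blue. For photosystem genes replicate 1 of day 10 lies at -0.14, inside the day 0 range, and replicates 2 and 3 at -1.34 and -1.74, while cytosolic ribosomal proteins lie between 0.46 and 0.64 in all 3 day 10 libraries.

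Cytosolic ribosomal protein genes had small positive fold changes, of which few passed the test. Of 117 genes, 3 were called higher (2.56%, against 2.49% of all genes) and 0 lower, with 1 to 7 higher when 1 library was left out and none on the 6 libraries alone. A positive fold change was found in 113 (61.8% of all genes had one), with a median of 0.55 and quartiles of 0.41 and 0.67. Day 10 libraries lay wholly above day 0 in 94 of them (80.3%), against 3379 of all 16202 genes (20.9%). The 60S protein L27-3-like gene (BGI_novel_G001073) had 81.4, 87.7 and 86.1 FPKM at day 10, against 37.03, 30.4 and 46.4 FPKM at day 0 (1.16, SE 0.17, adjusted p = 0.00512), with no overlap. It was lost on the 6 libraries alone (adjusted p = 0.0536). After rescaling the median was 0.38 and none of the 117 was called. Ribosome biogenesis genes had a median of 0.41 with 1 of 52 called, the U3 small nucleolar RNA-associated protein 15 homolog (F511_03662), which had 55.4, 49.6 and 51.6 FPKM at day 10, against 17.2, 17.9 and 30.9 FPKM at day 0 (1.26, SE 0.23, adjusted p = 0.012). Its call was lost without replicate 1 or 2 of day 0 (adjusted p = 0.0573 and 0.0528) and on the 6 libraries alone (0.0667). Elongation factor 1-alpha-like (F511_06854), often used as a stable reference, had 1430, 1303 and 1111 FPKM at day 10, against 507, 536 and 557 FPKM at day 0 (1.26, SE 0.19, adjusted p = 0.00592), and all day 10 values lay above day 0. It was lost on the 6 libraries alone (adjusted p = 0.0546).

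Cell division genes showed no common direction. Of 100 genes of mitosis and cytokinesis, 50 had a positive fold change (61.8% of all genes did) and the median was -0.00. The 1 called was a cyclin-dependent kinase F-4-like gene (BGI_novel_G000958), with 68.7, 76.3 and 86.4 FPKM at day 10, against 36.9, 32.3 and 44.1 FPKM at day 0 (1.02, SE 0.19, adjusted p = 0.0126). Its groups did not overlap, and its call was lost without replicate 1 or 2 of day 0 (adjusted p = 0.0545 and 0.0544) and on the 6 libraries alone (0.0598). After rescaling, and without replicate 3 of day 10, its adjusted p was 0.0155 and 0.0351 with a fold change under the minimum. The list's median was -0.26, -0.09 and 0.30 in replicates 1, 2 and 3 of day 10, against -0.16, -0.18 and 0.33 at day 0, so replicate 3 was the highest on both days. Of replication proteins and core histones 4.55% were called, near the 5.03% of all genes, with 2 of 44 higher (0 to 4) and 0 lower (median 0.28). These were the replication complex subunit PSF3 (F511_17709, 1.40, SE 0.27, adjusted p = 0.0148) and a histone H2B-like gene (F511_05240, 2.44, SE 0.60, adjusted p = 0.0321), which averaged 2.15 FPKM at day 5 and 63.5 FPKM at day 15. Both were lost without replicate 1 or 2 of day 0 or replicate 2 of day 10 (adjusted p up to 0.0625 and 0.114) and on the 6 libraries alone (0.06 and 0.0598).

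Of chromatin modifiers 1.14% were called, against 5.03% of all genes. The 1 of 88 called was the plant-specific histone deacetylase HDT1-like (F511_32886), with 62.2, 55.05 and 56.8 FPKM at day 10, against 18.03, 18.1 and 29.6 FPKM at day 0 (1.40, SE 0.23, adjusted p = 0.00761). All 3 day 10 libraries were higher, and the call was lost on the 6 libraries alone (adjusted p = 0.0512). Genes of DNA methylation and RNA silencing had 0 of 26 called by limma and 1 higher at an unadjusted p under 0.05 (median 0.06, quartiles -0.04 and 0.38).

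Auxin genes moved in both directions. Among 38 ARF and Aux/IAA genes 1 rose (0 to 2) and 2 fell (1 to 4, median 0.20), and the riser was auxin response factor 5 (F511_30984), the activator known in Arabidopsis as MONOPTEROS. It had 21.8, 28.2 and 34.5 FPKM at day 10, against 4.36, 7.55 and 13.1 FPKM at day 0 (1.73, SE 0.36, adjusted p = 0.0206). The groups did not overlap, with replicate 3 the highest in both, and the call did not hold without replicate 1 or 2 of day 0 or replicate 2 or 3 of day 10 (adjusted p up to 0.076). Both genes that fell were listed as auxin-induced protein 22D-like, the one above and F511_03621 (-1.07, SE 0.26, adjusted p = 0.0301), which was lost without any single library other than replicate 3 of day 10 (up to 0.109). Auxin transporter-like protein 2 (F511_05500), an auxin influx carrier, had 83.9, 85.8 and 72.04 FPKM at day 10, against 21.5, 26.9 and 39.1 FPKM at day 0 (1.47, SE 0.25, adjusted p = 0.00874), with no overlap, and was lost on the 6 libraries alone (adjusted p = 0.053). A GH3 gene (F511_31069), of the enzymes that tie auxin to amino acids, had 0.54, 0.46 and 1.83 FPKM at day 10, against 23.96, 31.1 and 5.7 FPKM at day 0 (-3.24, SE 0.60, adjusted p = 0.0126). Replicates 1 and 2 of day 0 were the highest, and the call did not hold without either (adjusted p = 0.0622 and 0.0534) and without replicate 2 of day 10 (0.0523).

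Of 14 LBD factors, 3 were called higher (2 to 3) and 0 lower (median 0.17), 21.4% against 5.03% of all genes. LOB domain-containing protein 25-like (F511_25101) had 28.4, 41.6 and 58.97 FPKM at day 10, against 3.98, 3.79 and 5.76 FPKM at day 0 (2.96, SE 0.27, adjusted p = 0.00145), and its relative LBD16-like (F511_01495), known in Arabidopsis for lateral root and callus formation, had 5.24, 7.69 and 9.89 FPKM at day 10, against 1.21, 0.69 and 1.07 FPKM at day 0 (2.09, SE 0.33, adjusted p = 0.00723). In both genes every day 10 library lay above every day 0 library with replicate 3 the highest of day 10, and both calls were kept throughout. LBD4 (F511_26445) was the third called (1.44, SE 0.38, adjusted p = 0.0419). It was lost after rescaling (adjusted p = 0.0515) and without any single library other than replicate 1 of day 10 (up to 0.135).

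Among cytokinin genes, 2 of the first synthesis step rose and 1 of hormone release fell. Of 30 tested, 4 were called higher (2 to 3) and 1 lower (median 0.40), 16.7% against 5.03% of all genes. Isopentenyltransferase 5 (F511_12691) had 10.4, 15.2 and 10.2 FPKM at day 10, against 1, 0.33 and 1.89 FPKM at day 0 (2.69, SE 0.32, adjusted p = 0.00296), and adenylate isopentenyltransferase 3-like (F511_03692) had 80.2, 94.9 and 91.5 FPKM at day 10, against 21.99, 20.8 and 48.7 FPKM at day 0 (1.62, SE 0.35, adjusted p = 0.0227). Both make the first cytokinin precursor, and neither overlapped between the days. A response regulator ARR5-like gene (F511_13050), of the type A regulators that cytokinin induces in Arabidopsis, had 24.3, 20 and 14.9 FPKM at day 10, against 9, 8.55 and 8.34 FPKM at day 0 (1.08, SE 0.18, adjusted p = 0.00848), and a second ARR5-like gene (F511_23275), outside the naming rule and picked after its values were seen, averaged 71.9 FPKM at day 10 and 13.2 FPKM at day 0 (2.07, adjusted p = 0.0422) and was lost on the 6 libraries alone (adjusted p = 0.106). The LOG-type phosphoribohydrolase (F511_39717), which turns cytokinin nucleotides into the active base, fell, with 0.89, 1.79 and 2.26 FPKM at day 10, against 11.6, 12.5 and 19.8 FPKM at day 0 (-2.56, SE 0.35, adjusted p = 0.0039). It and isopentenyltransferase 5 were kept throughout. The call of isopentenyltransferase 3-like was lost without replicate 1 or 2 of day 0 or 2 or 3 of day 10 (adjusted p up to 0.0904), and that of F511_13050 after rescaling and without replicate 1 of day 10, with a fold change under the minimum, and on the 6 libraries alone (adjusted p = 0.0694). Of the wall list, all 3 genes that fell were listed as zeatin O-xylosyltransferase-like, enzymes that store zeatin as a conjugate, and F511_02433 had 21.9, 34.9 and 25.7 FPKM at day 10, against 95.6, 95.5 and 101.1 FPKM at day 0 (-1.81, SE 0.17, adjusted p = 0.00145), kept throughout with no overlap.

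Homeodomain factors had 8 of 81 called higher and 2 lower (1 to 2, median 0.10), 12.3% against 5.03% of all genes. The higher calls were 2 without replicate 1 of day 0, 4 without replicate 2 of day 0, 5 without replicate 3 of day 10 and 3 on the 6 libraries alone. Zinc-finger homeodomain protein 10 (F511_20410) had 40.4, 38.4 and 54.5 FPKM at day 10, against 6.16, 10.4 and 10.7 FPKM at day 0 (2.19, SE 0.23, adjusted p = 0.00227), and an ATHB-6-like HD-ZIP gene (BGI_novel_G001007), whose Arabidopsis namesake restrains abscisic acid responses, had 21.7, 23.01 and 21.02 FPKM at day 10, against 8.72, 10.6 and 7.62 FPKM at day 0 (1.21, SE 0.15, adjusted p = 0.00315). Day 10 lay wholly above day 0 in both, and both were kept throughout. HAT4-like (F511_19045), a shade-response factor in Arabidopsis, fell, with 16.9, 8.02 and 27.7 FPKM at day 10, against 110, 77.4 and 56.5 FPKM at day 0 (-2.25, SE 0.39, adjusted p = 0.00975). It was lost on the 6 libraries alone (adjusted p = 0.0708). The WUSCHEL-related homeobox 11-like gene (F511_17086), picked after its values were seen for its relative's role in adventitious rooting in Arabidopsis, averaged 31.4 FPKM at day 10 and 3.81 FPKM at day 0 (log2 fold change 2.51, adjusted p = 0.0412), and was lost on the 6 libraries alone (adjusted p = 0.129). Organ polarity and growth regulators had 3 of 44 called higher (1 to 7) and 0 lower (median 0.37). They were a pair of SQUAMOSA promoter-binding-like genes, SPL16-like (F511_25476, 1.58, SE 0.23, adjusted p = 0.00476) and SPL6 (F511_34812, 1.39, SE 0.27, adjusted p = 0.0164), and growth-regulating factor 6-like (F511_01318, 1.24, SE 0.30, adjusted p = 0.0303). All 3 were lost on the 6 libraries alone, with adjusted p of 0.0536, 0.0907 and 0.0693, and the last of them also without any single library other than replicate 3 of day 0. AP2 and PLETHORA regulators had 0 of 5 called by limma and 0 at an unadjusted p under 0.05.

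Of 19 LEA proteins and dehydrins, hydrophilic proteins that build up in drying cells, 7 were called higher and 1 lower (median 1.48, quartiles 0.92 and 2.26). A positive fold change was found in 18. Dehydrin-like protein Dh2 (F511_17762) had 798, 1049 and 1256 FPKM at day 10, against 242, 184 and 230 FPKM at day 0 (2.22, SE 0.25, adjusted p = 0.00245), and the gene F511_23173, listed as DC-8-like and named after a carrot embryo protein, had 15.8, 20.6 and 22.5 FPKM at day 10, against 1.04, 0.77 and 4.39 FPKM at day 0 (2.93, SE 0.46, adjusted p = 0.00708). Day 10 lay above day 0 in every library of both, and both were kept throughout. The list's median was 1.80, 1.82 and 1.31 in replicates 1, 2 and 3 of day 10, against -0.40, -0.47 and 0.60 at day 0, so that replicate 3 of day 0 stood towards day 10. Without that library 10 of the 19 were called higher and the median was 2.24, and without replicate 2 of either day 2 were. On the 6 libraries alone 3 were. The 1 called lower (F511_41947), listed as a Lea-like protein of late embryogenesis, had 11.1, 13.8 and 44.6 FPKM at day 10, against 142, 134 and 42.2 FPKM at day 0 (-2.23, SE 0.52, adjusted p = 0.0284). Replicate 3 of day 10 lay above replicate 3 of day 0, and leaving out any single one of replicates 1 and 2 ended the call (adjusted p up to 0.111).

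Other genes of abscisic acid and stress responses also rose. Low-temperature-induced 65 kDa protein-like (F511_20067), induced by abscisic acid and cold in Arabidopsis, had 144, 197 and 199 FPKM at day 10, against 9.36, 4.89 and 28.7 FPKM at day 0 (3.87, SE 0.50, adjusted p = 0.00354). The gene F511_18359, a homolog of the translocator protein that abscisic acid induces in Arabidopsis, had 97.3, 137 and 121 FPKM at day 10, against 4.86, 2.72 and 18.7 FPKM at day 0 (3.97, SE 0.53, adjusted p = 0.00368). In both, replicate 3 was the highest at day 0, no values overlapped, and the calls were kept throughout. HSP70, HSP90, HSP101 and heat stress factors had 6 of 53 called higher and 2 lower (median 0.45), and 1 to 9 were called higher with 1 library left out. Heat shock 70 kDa 4-like (F511_04348), a chaperone, had 509, 480 and 454 FPKM at day 10, against 81.4, 96.5 and 228 FPKM at day 0 (1.97, SE 0.32, adjusted p = 0.0079), with replicate 3 of day 0 the nearest to day 10. It was lost on the 6 libraries alone (adjusted p = 0.068). Heat shock factor HSF8 (F511_45771) had 3.54, 4.75 and 4.18 FPKM at day 10 and was listed at 0 in all day 0 libraries, with means of 0.863 FPKM at day 5 and 0.223 FPKM at day 15. It passed the level filter only through day 10. Heat stress factor A-4a (F511_01867) fell, with 12.8, 16.3 and 20.1 FPKM at day 10, against 46.8, 44.2 and 33.8 FPKM at day 0 (-1.30, SE 0.22, adjusted p = 0.00947), and was lost on the 6 libraries alone (adjusted p = 0.0568).

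Of abscisic acid genes 15.6% were called in either direction, and of gibberellin and brassinosteroid genes 8.7%, against 5.03% of all genes. Of 32 abscisic acid genes 4 were higher (1 to 5) and 1 lower (0 to 3, median 0.30). Besides the 8'-hydroxylase these were the receptor PYL9-like (F511_03136), with 156, 165 and 112 FPKM at day 10, against 46.8, 52.1 and 69.8 FPKM at day 0 (1.34, SE 0.25, adjusted p = 0.0135), and a pair of ABSCISIC ACID-INSENSITIVE 5-like transcription factors, protein 5 (F511_11769, 1.64, SE 0.34, adjusted p = 0.0201) and protein 7 (F511_01582, 1.23, adjusted p = 0.0288), both lost on the 6 libraries alone (adjusted p = 0.101 and 0.105). Zeaxanthin epoxidase (F511_11649), an early step of abscisic acid synthesis, fell, with 139, 112 and 85.2 FPKM at day 10, against 253, 236 and 204 FPKM at day 0 (-1.06, SE 0.20, adjusted p = 0.014). PYL9-like and zeaxanthin epoxidase did not overlap between the days, and both were lost without replicate 1 or 2 of day 0 (adjusted p up to 0.0647 and 0.0651). Of 23 gibberellin and brassinosteroid genes 2 rose and 0 fell (median 0.33). Gibberellin 20 oxidase 1-B-like (F511_08477) had 23.9, 11.96 and 7.72 FPKM at day 10, against 0.62, 0 and 1.69 FPKM at day 0 (3.11, SE 0.46, adjusted p = 0.00583), and gibberellin 3-beta-dioxygenase 1-like (F511_10046), which makes the active hormone in the next step, had 275, 159 and 117 FPKM at day 10, against 10.4, 7.01 and 24.9 FPKM at day 0 (3.70, SE 0.45, adjusted p = 0.00315). Day 10 was higher in every library of both with replicate 1 the highest. The 3-beta-dioxygenase was kept throughout, and the 20 oxidase was lost on the 6 libraries alone (adjusted p = 0.057).

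Genes of jasmonate synthesis and response fell or had no call. Of 26, with the JAZ (TIFY) repressors included, 6 were called lower and 0 higher (median -0.89). Allene oxide synthase, the first committed enzyme of the pathway, was called in 2 copies, F511_08159 with 7.67, 12.7 and 18.6 FPKM at day 10, against 54.4, 68.95 and 26.1 FPKM at day 0 (-1.83, SE 0.38, adjusted p = 0.0201) and F511_01073 (-1.29, SE 0.29, adjusted p = 0.0243). The 12-oxophytodienoate reductase 11 gene (F511_01192) had 18.9, 44.9 and 82.1 FPKM at day 10, against 134, 212 and 172 FPKM at day 0 (-2.01, SE 0.47, adjusted p = 0.0282). In none of these did the days overlap. The other 3 were TIFY 10A-like (F511_05624, -2.0, adjusted p = 0.0332), TIFY 10B-like (F511_09919, -1.51, adjusted p = 0.0418) and TIFY 4A-like (F511_07340, -2.06, adjusted p = 0.0295). All 6 calls were lost without replicate 1 of day 0, without replicate 2 of day 0 and without replicate 2 of day 10, and 2 genes were called lower without replicate 1 of day 10 and 8 without replicate 3 of day 0.

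Calls in stress-responsive transcription factor families depended on single libraries. Of 77 genes of ethylene synthesis and the ERF family, 10 were called lower (1 to 14) and 4 higher (0 to 6, median -0.24), and of 50 WRKY factors 6 were lower (0 to 11) and 2 higher (0 to 3, median 0.10). Without replicate 1 of day 0, 1 ERF-list gene and 0 WRKY genes were lower, and without replicate 3 of day 0, 14 and 11. Without replicate 3 of day 10, 12 and 9 were. WRKY53 (F511_00576), a leaf senescence factor in Arabidopsis, had 4.04, 7.09 and 51.2 FPKM at day 10, against 342, 287 and 58.5 FPKM at day 0 (-3.81, SE 0.87, adjusted p = 0.0262). WRKY40 (F511_32070) had 4.58, 8.63 and 34.4 FPKM at day 10, against 334, 241 and 27.01 FPKM at day 0 (-3.41, SE 0.90, adjusted p = 0.0419). Replicate 3 was the highest of day 10 and the lowest of day 0 in both, and in WRKY40 the 2 days overlapped there. Leaving out any single one of replicates 1 and 2 ended both calls (adjusted p up to 0.104 and 0.153). Their levels at day 5 averaged 5.93 and 3.97 FPKM.

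Members whose calls held better were also found among these families. ERF1B-like (F511_35115) had 3.57, 2.32 and 14.9 FPKM at day 10, against 87.3, 61.7 and 35.03 FPKM at day 0 (-3.23, SE 0.56, adjusted p = 0.00975), and a NAC72-like gene (F511_04675), whose Arabidopsis namesake responds to drying and abscisic acid, had 6.18, 9.63 and 8.2 FPKM at day 10, against 79.1, 61.02 and 32.2 FPKM at day 0 (-2.62, SE 0.39, adjusted p = 0.00592). Day 10 lay below day 0 throughout in both, with replicate 3 the lowest at day 0. The NAC72-like call was kept throughout, and ERF1B-like was lost on the 6 libraries alone (adjusted p = 0.0667). A further NAC gene (F511_12857) had 6.17, 4.44 and 34.4 FPKM at day 10, against 313, 145 and 178 FPKM at day 0 (-4.18, SE 0.65, adjusted p = 0.00696), also lost on the 6 libraries alone (adjusted p = 0.057). NAC factors in all had 4 of 37 called lower (2 to 6) and 2 higher (0 to 1, median -0.09). Among ERF genes that rose, ERF113 (F511_10740) had 133, 162 and 286 FPKM at day 10, against 27.7, 64.6 and 53.2 FPKM at day 0 (1.98, SE 0.42, adjusted p = 0.0216), with no overlap, and its call was lost without replicate 1 of day 0 or replicate 2 or 3 of day 10 and on the 6 libraries alone (adjusted p up to 0.0839).

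Calcium signalling genes had 4 of 58 called lower and 2 higher (0 to 2, median -0.03). Calcium-dependent protein kinase 32 (F511_03805) had 6.41, 15.8 and 32.3 FPKM at day 10, against 164, 164 and 36.5 FPKM at day 0 (-2.65, SE 0.67, adjusted p = 0.0359), with replicate 3 of each day the nearest to the other day, and leaving out any single one of replicates 1 and 2 ended the call (adjusted p up to 0.134). The list had 9 called lower without replicate 3 of day 0 and 8 without replicate 3 of day 10, but 0 without replicate 1 or 2 of day 0 or replicate 2 of day 10, and 0 on the 6 libraries alone. MYB factors had 4 of 57 called higher (2 to 6) and 1 lower (0 to 2, median 0.07). An R2R3-MYB gene (F511_19197) had 293, 383 and 475 FPKM at day 10, against 135, 162 and 124 FPKM at day 0 (1.42, SE 0.20, adjusted p = 0.00473) and MYB1R1 (F511_22687) had 632, 601 and 882 FPKM at day 10, against 253, 283 and 339 FPKM at day 0 (1.26, SE 0.21, adjusted p = 0.00871). Day 10 was higher in every library of both, and both were lost on the 6 libraries alone (adjusted p = 0.0536 and 0.0639). bHLH factors had 4 of 56 called higher (0 to 5) and 1 lower (0 to 3, median 0.07), among them bHLH66-like (F511_10072, 1.71, SE 0.33, adjusted p = 0.0151), which was lost without replicate 1 or 2 of day 0 or replicate 2 of day 10 (up to 0.0663).

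**Figure D4:**
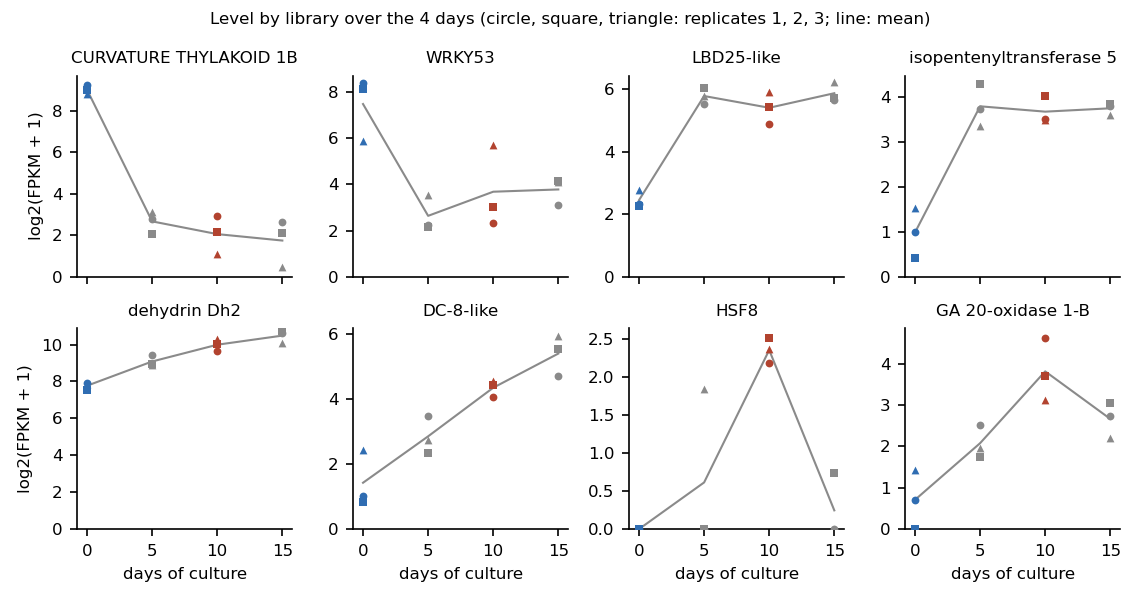
Log2(FPKM + 1) of 8 genes in each library at days 0, 5, 10 and 15, with the line through the mean of each day. CURVATURE THYLAKOID 1B, WRKY53, LBD25-like and isopentenyltransferase 5 lay towards their day 10 level already at day 5, dehydrin Dh2 and DC-8-like were higher on each later day, and HSF8, which passed the level filter only through day 10, and the gibberellin 20 oxidase had their highest means at day 10.

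Enzymes that act on phenolics went both ways. Of 4 polyphenol oxidases tested, 3 fell (2 to 3, median -2.79). Besides F511_05840 above, F511_09757 had 66.96, 158 and 184 FPKM at day 10, against 1506, 760 and 605 FPKM at day 0 (-2.81, SE 0.43, adjusted p = 0.00642), and F511_05839, next to F511_05840 by locus tag, had 0.37, 1.11 and 5.55 FPKM at day 10, against 18.7, 13.6 and 20.01 FPKM at day 0 (-2.77, SE 0.65, adjusted p = 0.0274). No day 10 library reached day 0, and replicate 3 was the highest at day 10 in all 3 genes. F511_09757 was lost on the 6 libraries alone (adjusted p = 0.0592), and F511_05839 also without replicate 1 or 2 of either day (up to 0.0956). Class III peroxidases had 4 of 42 called higher (2 to 6) and 0 lower (median 0.50). After the lignin-forming gene, peroxidase 47 (F511_38627) had 110, 154 and 166 FPKM at day 10, against 37.1, 69.4 and 49.7 FPKM at day 0 (1.47, SE 0.23, adjusted p = 0.00707), with no overlap, lost on the 6 libraries alone (adjusted p = 0.0649). Phenylpropanoid, lignin and flavonoid enzymes had 2 of 103 called higher (0 to 7) and 4 lower (1 to 5, median 0.06). That is 5.83% called, near the 5.03% of all genes.

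Antioxidant enzymes and glutathione transferases had 4 of 67 called higher (0 to 5) and 5 lower (3 to 8, median -0.27). That is 13.4% called, against 5.03% of all genes. Chloroplast L-ascorbate peroxidase 6 (F511_11383), which removes hydrogen peroxide, had 159, 257 and 164 FPKM at day 10, against 665, 783 and 524 FPKM at day 0 (-1.78, SE 0.23, adjusted p = 0.00353), and a glutathione S-transferase (F511_21575) had 76.1, 114 and 126 FPKM at day 10, against 322, 492 and 371 FPKM at day 0 (-1.91, SE 0.28, adjusted p = 0.00553). Both lay below day 0 in all 3 libraries and were kept throughout. In the other direction, 2 Mn-superoxide dismutase loci rose, BGI_novel_G000270 (1.53, SE 0.41, adjusted p = 0.0423) and BGI_novel_G000268 (1.65, adjusted p = 0.0458, and 0.149 on the 6 libraries alone). The first was lost without any of 5 of the 6 libraries (adjusted p up to 0.104).

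Among wall genes, several of pectin and of structural proteins rose. Wall loosening genes had 6 of 89 called higher and 2 lower (0 to 4, median 0.15, that of all genes). Their share called was 8.99%, against 5.03% of all genes. The higher calls were 1 without replicate 1 of day 0 and 2 without replicate 2 of either day. The polygalacturonase-1 non-catalytic subunit beta-like gene (F511_18275), which acts with pectin-cutting enzymes in tomato, had 943, 2337 and 853 FPKM at day 10, against 116, 156 and 112 FPKM at day 0 (3.27, SE 0.37, adjusted p = 0.0026). Replicate 2 was the highest at day 10 and no values overlapped. Cellulose, xylan and wall protein genes had 5 of 106 called higher (2 to 7) and 3 lower (1 to 5, median 0.23), 7.55% in all. The lower calls were all zeatin O-xylosyltransferase-like genes, described above with cytokinin, which are in this list by protein name only. An extensin-like protein EPR1 gene (F511_24984) had 161, 81.1 and 129 FPKM at day 10, against 26.2, 23.9 and 38.1 FPKM at day 0 (2.01, SE 0.32, adjusted p = 0.0073) and the 14 kDa proline-rich protein DC2.15-like gene (F511_32295), first known from carrot cell cultures, had 5180, 3306 and 3474 FPKM at day 10, against 1216, 377 and 754 FPKM at day 0 (2.47, SE 0.40, adjusted p = 0.00735). Day 10 was higher in every library of each. The first 2 of these 3 genes were kept throughout, and the last was lost on the 6 libraries alone (adjusted p = 0.0639). A germin-like protein gene (F511_22684), of secreted wall-bound proteins, had 38.2, 48.1 and 82.3 FPKM at day 10, against 6.27, 5.39 and 6.76 FPKM at day 0 (2.93, SE 0.48, adjusted p = 0.00763), kept throughout with no overlap. It was 1 of 3 called higher among 76 pathogenesis-related and chitinase genes (2 to 4), with 1 lower (0 to 2, median 0.01). Of that list 5.26% were called, near the 5.03% of all genes.

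Enzymes of starch and raffinose were among the genes that fell, and sucrose synthase among those that rose. Of 66 genes of raffinose, sucrose and starch, 3 were called higher (2 to 5) and 6 lower (3 to 6, median -0.20). Beta-amylase 3 (F511_41795), which releases maltose from starch in chloroplasts, had 40.7, 41.5 and 55.8 FPKM at day 10, against 168, 135 and 115 FPKM at day 0 (-1.57, SE 0.18, adjusted p = 0.0026), and a galactinol-sucrose galactosyltransferase (F511_21122), of the raffinose synthases, had 45.9, 56.8 and 72.8 FPKM at day 10, against 173, 150 and 162 FPKM at day 0 (-1.47, SE 0.18, adjusted p = 0.00296). Inactive beta-amylase 9-like (F511_03722) had 2.88, 3.67 and 2.49 FPKM at day 10, against 26.9, 29.5 and 15.8 FPKM at day 0 (-2.61, SE 0.44, adjusted p = 0.00922). The days did not overlap in any of the 3, and all 3 were kept throughout. Sucrose synthase 2 (F511_16986), which splits sucrose for use in sink tissue, had 43.8, 58.99 and 69.6 FPKM at day 10, against 4.67, 5.96 and 18.7 FPKM at day 0 (2.64, SE 0.39, adjusted p = 0.00592), and the sucrose carrier SUC4-like (F511_16025) had 106, 184 and 162 FPKM at day 10, against 37.3, 34.9 and 66.1 FPKM at day 0 (1.71, SE 0.27, adjusted p = 0.00707). All day 10 values were above day 0, with replicate 3 the highest day 0 value in both. Both were lost on the 6 libraries alone (adjusted p = 0.0598 and 0.0639).

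A few genes of nutrient and water uptake rose. Sugar and nitrate transport genes had 4 of 49 called higher (2 to 4) and 1 lower (0 to 1, median 0.21), led by the high-affinity nitrate transporter 3.1-like gene (F511_28104), a partner protein of nitrate carriers in Arabidopsis, which had 187, 202 and 277 FPKM at day 10, against 16.5, 45.02 and 39.1 FPKM at day 0 (2.79, SE 0.40, adjusted p = 0.00512). Phosphate starvation genes had 4 of 28 called higher (2 to 4) and 1 lower (0 to 1, median 0.03). After ribonuclease LE, inorganic phosphate transporter 1-4-like (F511_20836) had 144, 293 and 207 FPKM at day 10, against 49.3, 62.2 and 54.05 FPKM at day 0 (1.89, SE 0.24, adjusted p = 0.00354). No values overlapped in either transporter, and both were kept throughout. Aquaporins had 3 of 13 called higher and 0 lower (median 0.45), 23.1% against 5.03% of all genes. NIP5-1 (F511_39079), a boric acid channel in Arabidopsis, had 18.02, 15.98 and 17.5 FPKM at day 10, against 0.39, 1.56 and 6.07 FPKM at day 0 (2.63, SE 0.44, adjusted p = 0.00871), and was lost on the 6 libraries alone (adjusted p = 0.0799). PIP2-4-like (F511_04405) had 303, 366 and 230 FPKM at day 10, against 25.9, 25.5 and 149 FPKM at day 0 (2.64, SE 0.59, adjusted p = 0.0249). In both aquaporins replicate 3 was the highest of day 0. Of the 13, 6 were called higher without it, 1 without replicate 1 or 2 of day 0 or replicate 2 of day 10, and 0 on the 6 libraries alone. The call of PIP2-4-like was lost without replicate 1 or 2 of day 0 or replicate 2 of day 10 (adjusted p up to 0.0986).

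In other lists, 8.51% of cytochrome P450 genes, 3.57% of cuticle and wax genes and 10% of small heat shock proteins were called. The share of all genes was 5.03%. Cytochrome P450 genes had 1 of 94 called higher (0 to 1) and 7 lower (median -0.03). The lower calls were 1 without replicate 2 of day 0, 2 without replicate 1 of day 0, 3 without replicate 1 of day 10, 4 without replicate 2 of day 10 and 0 on the 6 libraries alone. The smallest adjusted p was that of P450 89A2-like (F511_23195), with 141, 147 and 150 FPKM at day 10, against 268, 331 and 382 FPKM at day 0 (-1.14, SE 0.15, adjusted p = 0.00388). Day 10 lay below day 0 in each library, and the call was lost on the 6 libraries alone (adjusted p = 0.0549). Cuticle and wax genes had 2 of 84 called higher (0 to 3) and 1 lower (median -0.06). The 1 called lower, 3-ketoacyl-CoA synthase 12 (BGI_novel_G000358), of the enzymes that lengthen wax precursors, was listed at 0 in all day 10 libraries and had 2.03, 2.84 and 4.32 FPKM at day 0, and it passed the level filter only through day 0. Small heat shock proteins had 1 of 10 called higher (0 to 1) and 0 lower (median 0.57).

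**Figure D5:**
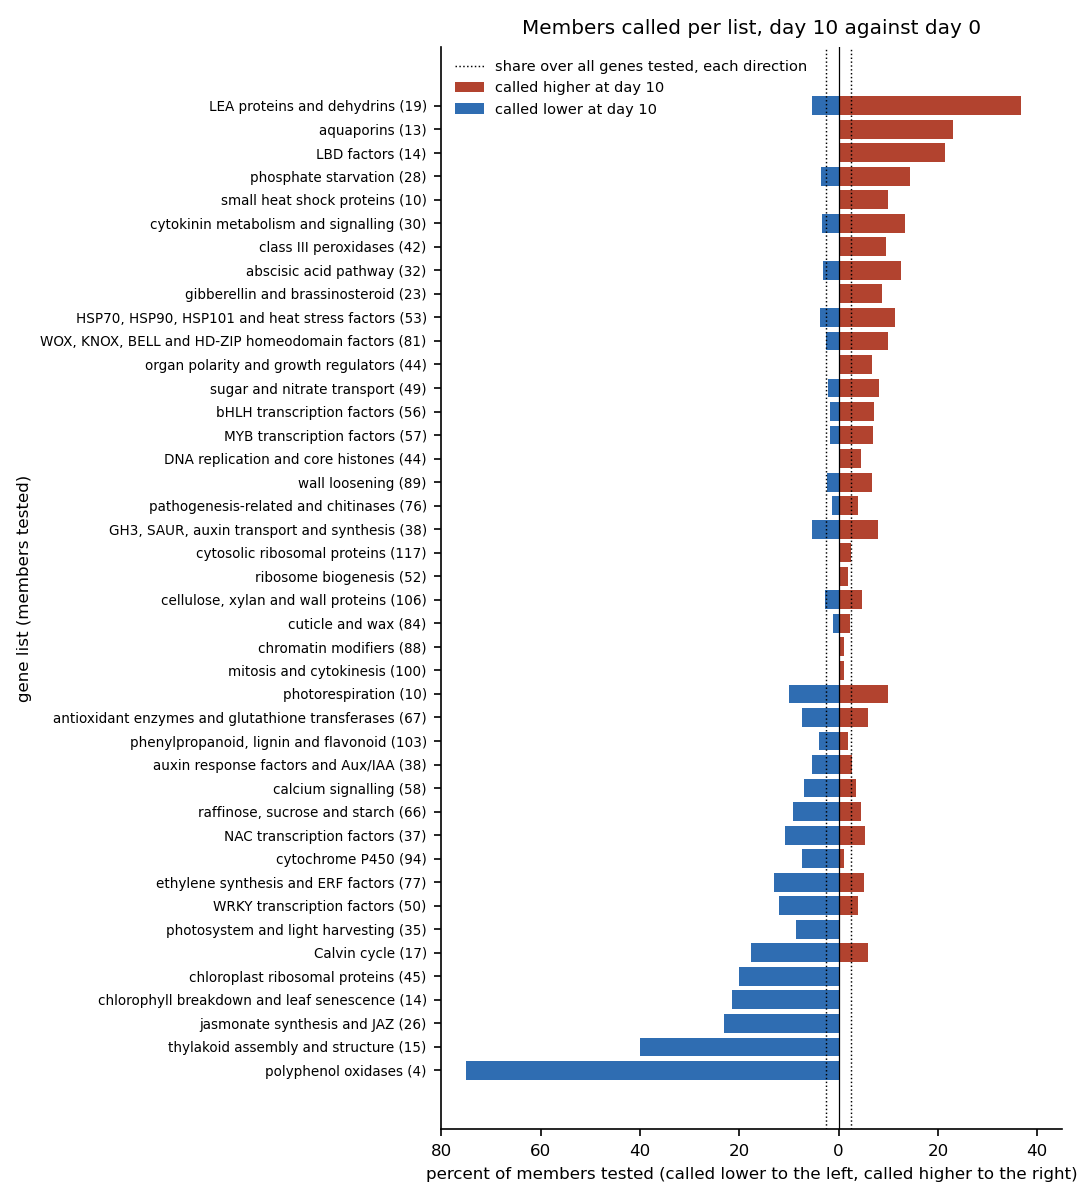
Share of the members tested in each gene list that was called higher (red, to the right) or lower (blue, to the left) at day 10, with the number tested in brackets and the shares over all genes (2.49% and 2.54%) as dotted lines. The longest bars are those of polyphenol oxidases (3 of 4 lower), thylakoid structure (6 of 15 lower) and LEA proteins (7 of 19 higher).

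Cell type markers were compared by their summed levels, with no test. Mesophyll markers summed to 69900, 25300 and 18100 FPKM in replicates 1, 2 and 3 of day 10, against 74000, 62300 and 96200 FPKM at day 0, with 20 of the 21 reaching 1 FPKM on both days. Replicate 1 of day 10 overlapped day 0, as for the photosystem list, with which members are shared, and 1 marker was at 0 in all 6 libraries. Guard cell markers summed to 40, 68.1 and 70.3 FPKM at day 10 and 34.4, 28.5 and 33.7 FPKM at day 0, with no overlap. Of 8 tested, 5 had a positive and 3 a negative fold change, with a median of 0.41, and of -0.35 with a minimum of 5 FPKM. Among the 8, 2 were called higher (0 to 3). Both were taken in by protein name as relatives of the intended markers, and these data do not show them to be guard cell genes. The slow-type anion channel gene SLAH4-like (F511_08655, 2.35, SE 0.49, adjusted p = 0.0205) was lost without replicate 1 or 2 of day 0 (adjusted p up to 0.0782). It averaged 18.9 FPKM at day 10 and 2.81 FPKM at day 0, and so made up a large part of the difference between the sums. The other, an epidermal patterning factor-like gene (F511_06072), had 1.87, 1.4 and 5.7 FPKM at day 10, against 0.09, 0 and 0.68 FPKM at day 0, and it passed the level filter only through day 10. Epidermis and trichome markers summed to 174, 131 and 381 FPKM at day 10 and 272, 244 and 419 FPKM at day 0, and vascular markers to 166, 164 and 139 FPKM at day 10 and 190, 141 and 142 FPKM at day 0, both with overlap. Of 5 shoot meristem markers tested, 4 had a positive fold change (median 0.26) and 1 was called lower. The 1 called lower, CLE16 (F511_06400), is in the list by protein name, and these data do not show it to be a meristem gene. It was listed at 0 in all day 10 libraries, had 2.09, 1.94 and 1.11 FPKM at day 0, and passed the level filter only through day 0. Shoot meristem markers summed to 21.2, 30.4 and 41.7 FPKM at day 10 and 20.7, 17.1 and 21.8 FPKM at day 0, with 3 of 11 at 0 in all 6 libraries. Root markers summed to 14.7, 6.87 and 50.1 FPKM at day 10 and 14.1, 14.6 and 42.2 FPKM at day 0, with replicate 3 the highest on both days. The part of changed cell types in the gene results was not tested.

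Set against day 5, which shares the day 10 libraries with the comparison above, no gene was called at day 10. Limma called 0 of 16202 genes (0%), the lowest adjusted p was 1.00, and 496 genes had an unadjusted p under 0.05. For the genes that rose or fell most against day 0, means at day 5 are therefore given only as levels. The lignin-forming peroxidase averaged 12.4, 429, 430 and 563 FPKM at days 0, 5, 10 and 15, and dehydrin Dh2 219, 549, 1030 and 1460 FPKM. The mean of the first at day 5 was close to that at day 10, while the means of the second were higher on each later day. Gibberellin 20 oxidase 1-B-like averaged 0.77, 3.34, 14.5 and 5.54 FPKM over the same days, with the highest mean at day 10. None of these differences from day 5 passed the test (adjusted p = 1.00 each).

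Most genes passed the level filter through both days. Of the 16202 genes, 13932 reached 1 FPKM in all 6 libraries. In 65 genes all 3 day 10 libraries and no day 0 library reached it (25 of them called higher). In 55 genes the reverse held (21 of them called lower). The genes nearest to the limit were a CASP-like protein 5C1 gene (BGI_novel_G000327) and a ferrochelatase gene (BGI_novel_G000392) inside it, with a third-highest value of 1.00 FPKM, and a beta-glucosidase 12-like gene (BGI_novel_G000023) and a Casparian strip membrane protein 1-like gene (BGI_novel_G000175) outside it, with 0.99 FPKM.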

How the data were processed

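RNA-seq of leaf explants gave 12 libraries (days 0, 5, 10 and 15, 3 each), of which the 6 of days 10 and 0 are described. The deposited expression table holds FPKM per gene, normalized by the authors to transcript length and to the fragments mapped in each library. HISAT, StringTie 1.0.4, Bowtie2 2.2.5 and BSMAP are named in the submitters' processing notes, while the genome build and annotation, the read depth and the treatment of reads shared between copies are not given in the sources used here. The precision of a value is therefore known only from the spread between replicates. A further 6 columns of per-sample values were not used. Protein names are those of the deposited table. The deposited methylation table gives a fraction of methylated CG per region and leaf age, per the file headers, and was used only for a count of genes listed with such regions. The other 3 methylation tables were not used.

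Genes with at least 1 FPKM in 3 of the 6 libraries were tested on log2(FPKM + 1) with limma 3.58.1 (statmod 1.5.0, R 4.3.3), with mean trend and robust variance, in 1 fit over 12 libraries with a mean for each day. P-values were two-sided and adjusted by the Benjamini-Hochberg method over all 16202 genes. A call needed an adjusted p under 0.05 and a log2 fold change of at least 1 in size. The fit was run on simulated data with 200 changed genes. Noise there was drawn independently for each library, unlike these data, where replicate 3 of both days lay apart. The run was a check of the code and not of the calls.

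Members and gene lists were chosen with earlier results of these data known, so list counts and medians are descriptions without a test. The naming rule took, among called genes with a named protein, the 15 largest non-overlapping changes in each direction where the higher day averaged 10 FPKM or more, and in each of 53 lists up to 3 genes in each direction by adjusted p with a mean of at least 1 FPKM. It gave 176 genes. Not all of these are named: the selection among them was made with the values known, and calls that held when libraries were left out were preferred. A few called list members outside the rule are named as well, also with their values known. Alternatives covered the pseudocount (0.1 and 0.5), the level filter (none and 5 FPKM), a rescaling by median-ratio size factors, the 6 libraries alone, a replicate block, replicates 1 and 2 only, each library left out in turn and no fold minimum.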

Additional observations from a re-analysis of the deposited data

How the results depend on the processing

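The count of 815 calls (404 higher, 411 lower) became 134 (77 higher, 57 lower) on the 6 libraries alone, 1539 (651 higher, 888 lower) on replicates 1 and 2 only, and 1516 (960 higher) with no fold minimum. It ran from 233 to 1199 with 1 library left out, with 140 to 609 higher and 93 to 590 lower. Rescaling left 257 higher. Deviations of same-numbered libraries of days 10 and 0 correlated with r of 0.026, 0.210 and 0.134, and the main fit did not pair them. Replicate 3 of both days lay apart on the second principal component, and a source shared by same-numbered libraries was not tested. With a replicate block limma called 1131 genes, and with the block on the 6 libraries alone 0, with 3969 at an unadjusted p under 0.05. Against day 5, 1 gene was called on replicates 1 and 2 only. Of the 176 genes named by the rule, 41 kept their call on the 6 libraries alone, 153 after rescaling, 149 with no filter, 163 and 174 with pseudocounts of 0.1 and 0.5, and 74 to 157 with 1 library left out, the fewest without replicate 1 of day 0.

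None of the 176 genes changed direction under these alternatives. List medians that moved by more than the spread between replicates were as follows. With no filter, photorespiration was at 0.13, chlorophyll breakdown at -0.29, cytokinin at 0.10, antioxidant enzymes at -0.10, raffinose, sucrose and starch at -0.07 and cellulose, xylan and wall proteins at 0.03. With a minimum of 5 FPKM, photorespiration was at 0.13, class III peroxidases at 1.10, guard cell markers at -0.35 and vascular markers at 0.23. After rescaling, cytosolic ribosomal proteins were at 0.38, ribosome biogenesis at 0.24, antioxidant enzymes at -0.44, raffinose, sucrose and starch at -0.35 and chromatin modifiers at 0.08. On replicates 1 and 2 only, photorespiration was at -0.21, ethylene and ERF genes at -0.69, NAC factors at -0.45, LEA proteins at 2.29, antioxidant enzymes at -0.10 and phosphate starvation genes at 0.20. A pseudocount of 0.1 put cytokinin genes at 0.54. With 1 library left out, medians ran from -0.55 to -0.09 for photorespiration, -0.19 to 0.22 for GH3, SAUR and auxin transport, 0.23 to 0.47 for cytokinin, -0.31 to 0.04 for NAC factors, 1.21 to 2.24 for LEA proteins, -0.27 to -0.13 for antioxidant enzymes, 0.01 to 0.20 for phosphate starvation and -0.30 to 0.14 for cytochrome P450. The cause of these shifts was not tested. The scale of log2(FPKM + 1) understates changes of low genes, and read depth was not used here to set their precision.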

Other observations

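Some genes of iron supply, chosen after their values were seen, had high levels at day 10. Ferric reduction oxidase 4 (F511_10968), of the enzymes that reduce iron at the cell surface, had 7.37, 15.3 and 68.9 FPKM at day 10, against 0.15, 0.07 and 0.07 FPKM at day 0. Replicate 3 of day 10 was the highest and no values overlapped, and the gene passed the level filter only through day 10, so that no p is given. Transcription factor bHLH100 (F511_36684), of the group that responds to iron shortage in Arabidopsis, had 35.2, 23.6 and 51.7 FPKM at day 10, against 0.39, 5.79 and 7.19 FPKM at day 0 (log2 fold change 3.08, SE 0.74, adjusted p = 0.0303). It did not overlap between the days, and it was lost on the 6 libraries alone (adjusted p = 0.0827). Probable zinc transporter 10 and molybdate transporter 1 were described above, and the difference between metal genes and others was not tested.

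Tested genes with a locus tag made 11694 pairs that follow each other by position on the same scaffold. Of these pairs, 1169 held a called gene. Both members were called in the same direction in 25, 15 higher and 10 lower, and in opposite directions in 19. Some of the first kind share a protein name, such as the calcium-binding protein CML23 loci F511_18426 and F511_18427 (log2 fold changes of -4.62 and -4.17), the zeatin O-xylosyltransferase loci F511_02432 and F511_02433 (-1.31 and -1.81) and a pair of glucosyltransferase loci, F511_10307 and F511_10308 (-3.96 and -1.41), the second of which passed the level filter only through day 0. Reads shared between near-identical copies could not be separated here. Whether either count of pairs differs from that of randomly placed calls was not tested.

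Regions of differing CG methylation between young and mature uncultured leaves, from 1 bisulfite library each, were listed with 656 of 14913 tested genes that carry a locus tag (4.4%). They were listed with 22 of the 772 called genes of that kind (2.85%), 6 of 380 called higher and 16 of 392 called lower. All 22 carried locus tags from F511_00040 to F511_04119, while called genes include tags as high as F511_45939. The part of the genome that the regions cover was not examined, so the shares cannot be read as genome-wide. These are counts, and no test was made.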
